A study of Mus musculus with 6 samples.

Results

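Megakaryocyte and erythroid lineage genes were followed in leukemia stem cells (LSCs) with and without *Piezo1*. The 10 genes, chosen by symbol, were the transcription factors *Gata1*, *Tal1* and *Klf1*, the erythropoietin receptor *Epor*, the carbonic anhydrases *Car1* and *Car2*, and the platelet genes *Pf4*, *Itga2b*, *Gp9* and *Vwf*. All 10 were found among the 55367 genes of the table. Each group, WT LSCs and *Piezo1*cKO LSCs, was sequenced as 3 libraries. The *Piezo1*cKO mice carried Mx1-cre and *Piezo1* fl/fl and had been given pIpC, and the WT mice were *Piezo1* fl/fl littermates without Mx1-cre that had been given pIpC as well. Mx1-cre responds to interferon and is not limited to blood cells. In both groups, lineage-depleted bone marrow cells were transduced with an MLL-AF9-YFP retrovirus and transplanted into irradiated recipients, and Lin- Sca-1- c-Kit+ CD16/32hi CD34+ YFP+ cells were sorted from the marrow of AML mice. The labels give an age of 8 to 10 weeks for these mice, and the text of the study gives it for mice at earlier steps, the pIpC treatment among them. The labels do not say whether the 3 libraries of a group came from separate mice, so the p-values measure only the spread between these libraries, which may be technical.

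Red cells and platelets come from a shared bipotent progenitor, and the sorted LSCs carry the surface phenotype of the granulocyte-macrophage branch, in which the genes of the other branch are normally turned down. GATA1 works with TAL1 on shared sites of erythroid and megakaryocytic genes, KLF1 drives the erythroid program, and the erythropoietin receptor signals through JAK2 and STAT5. Carbonic anhydrases are abundant red cell enzymes, and *Pf4*, *Itga2b*, *Gp9* and *Vwf* encode a granule chemokine and adhesion proteins of megakaryocytes and platelets.

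The genes did not move as a block. *Klf1*, *Epor*, *Car1*, *Car2* and *Pf4* fell in *Piezo1*cKO LSCs, *Tal1*, *Itga2b* and *Gp9* rose, and *Gata1* and *Vwf* did not pass the test. A gene was said to rise or fall where the adjusted p was under 0.05 in limma's linear model of the deposited log2 values, fitted on all 16746 genes with a mean of at least 1 and adjusted by Benjamini-Hochberg. By that rule 8 of the 10 genes were called, 3 higher and 5 lower, while 63.0% of all genes tested were called, 31.6% higher and 31.4% lower. The direction and the size of each gene's change are thus read one by one, and the share of called genes is not far from that of the whole table. The median absolute log2 fold change was 0.31 for the 10 genes and 0.089 for all genes on the deposited scale. The 10 genes were chosen with earlier results of these data known, so this comparison of sizes is a description only.

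The deposited values were log2 values pulled towards each gene's mean, a regularized log, and this pull was undone to recover whole reads for all 10 genes. Levels below are recovered reads divided by the library's size factor (normalized reads), and fold changes on reads are from limma-voom on 17352 genes with at least 10 reads in total. Recovered reads on genes ran from 14112224 to 15483601 per library, and a gene with few reads carries a large counting error. The targeted gene, *Piezo1*, had 101, 92.8 and 109 normalized reads in the WT libraries and 36.6, 56.5 and 45.8 in the *Piezo1*cKO libraries, which is in the direction of the labels. The groups did not overlap, and reads of the deleted exons were not told apart from those of the rest of the gene. Because RNA was taken from bulk sorted cells, fewer cells of a type and less RNA per cell cannot be told apart.

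Promoter sequence was available from RefSeq (GRCm38.p6) for 7 of the 10 genes, in 8 windows of 250 bases before a start site. It is printed for *Klf1*, *Epor* and *Pf4*, which fell, and for the first annotated start of *Tal1*, which rose, so that letters bound by the factors of this program can be seen beside the values. Annotated exons were left out, which shortened the *Klf1* window to 196 bases. Each is printed 5′ to 3′ on the gene's strand, with capitals for the GATA motif and for CACCC, the core of the motif of Klf factors. The GATA motif was AGATAA, or with another last base AGATAG, or with another first base TGATAA, or with both changes TGATAG, and all were searched on both strands. No match of one motif overlapped a match of the other.
Klf1, chr8:84901732-84901927, plus strand: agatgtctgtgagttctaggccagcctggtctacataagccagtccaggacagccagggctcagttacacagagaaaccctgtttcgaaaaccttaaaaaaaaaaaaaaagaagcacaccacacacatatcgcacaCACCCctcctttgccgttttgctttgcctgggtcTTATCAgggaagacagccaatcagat
Epor, chr9:21963577-21963826, minus strand: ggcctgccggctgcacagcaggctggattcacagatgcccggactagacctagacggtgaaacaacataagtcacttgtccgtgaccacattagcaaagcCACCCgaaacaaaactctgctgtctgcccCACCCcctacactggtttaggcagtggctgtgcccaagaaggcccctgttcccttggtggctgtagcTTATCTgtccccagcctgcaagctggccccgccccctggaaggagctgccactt
Pf4, chr5:90772185-90772434, plus strand: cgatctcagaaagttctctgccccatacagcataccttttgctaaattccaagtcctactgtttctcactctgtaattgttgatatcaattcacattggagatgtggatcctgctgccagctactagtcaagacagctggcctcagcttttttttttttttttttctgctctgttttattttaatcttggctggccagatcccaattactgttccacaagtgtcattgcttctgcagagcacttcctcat
Tal1, chr4:115056176-115056425, plus strand: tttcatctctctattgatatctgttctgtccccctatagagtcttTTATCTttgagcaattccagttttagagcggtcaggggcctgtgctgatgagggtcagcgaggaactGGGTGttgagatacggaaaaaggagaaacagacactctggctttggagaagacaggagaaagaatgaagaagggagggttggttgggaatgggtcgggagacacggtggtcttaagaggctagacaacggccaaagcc
The *Klf1* window held 1 GATA match, 80 bases before the start, and 1 CACCC match. The *Epor* window held 1 GATA match, 54 bases before the start, and 2 CACCC matches, and that of *Tal1* held 1 of each. The printed window of *Pf4* held neither motif. Across all 32851 promoters of the table, 26.5% held a GATA match and 52.0% a CACCC match in the same 250 bases, and 22.8% and 43.7% did so in the 196 bases used for *Klf1*. The windows not printed were those of *Gata1*, with 2 CACCC matches and no GATA match, of *Gp9*, with 1 CACCC match and no GATA match, of the second start of *Tal1*, with neither, and of *Itga2b*, where exons left 11 bases with neither. The E-box letters CANNTG, to which TAL1 dimers bind and which are not in capitals, were also searched, with 2 matches each for *Epor* and *Pf4* and none for *Klf1* or *Tal1*, while 66.2% of all promoters held one in 250 bases and 58.4% in 196. Of the windows not printed, that of *Gata1* held 1 E-box match and the 11 bases of *Itga2b* held 1. In the same 11 bases 2.72% of all promoters held one. The windows of *Gp9* and of the second start of *Tal1* held none. A match describes the letters only.

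**Figure D1:**
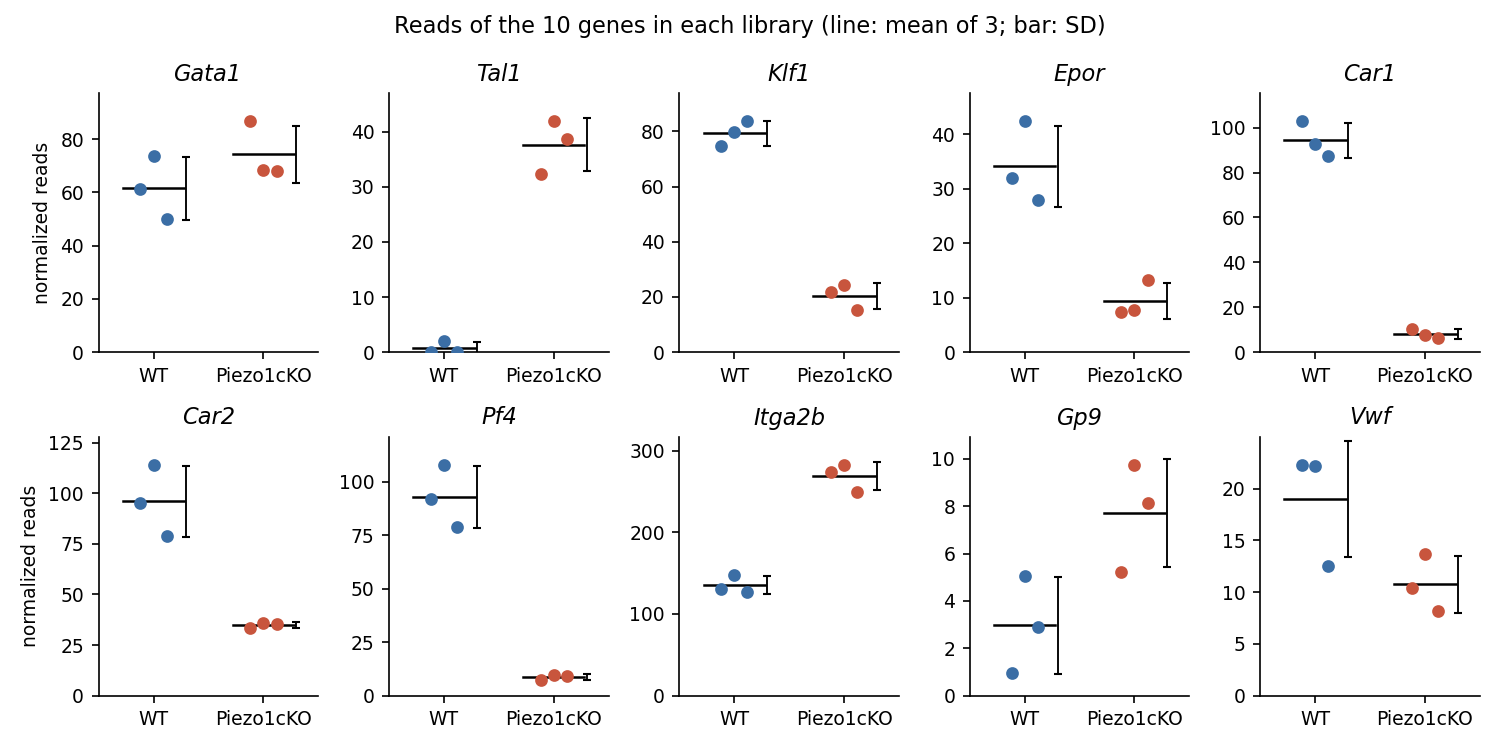
Normalized reads (y axis, linear, from 0, a separate scale for each gene) of the 10 genes in each of the 3 WT (blue) and 3 *Piezo1*cKO (red) libraries; the line is the mean and the bar the SD. *Klf1*, *Epor*, *Car1*, *Car2* and *Pf4* sit lower in all *Piezo1*cKO libraries, *Tal1* and *Itga2b* sit higher, *Gp9* is separated by a narrow gap and *Gata1* and *Vwf* overlap.

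Among the transcription factors, *Gata1* (chromosome X of GRCm38, 7959260 to 7978071), the zinc finger factor required by both lineages, had 61.1, 73.7 and 50.03 normalized reads in WT replicates 1 to 3 and 86.7, 68.2 and 68.2 in *Piezo1*cKO replicates 1 to 3. The groups overlapped. Its log2 fold change was 0.07 in the deposited values (SE 0.042, limma adjusted p = 0.164) and 0.28 on reads, with a 95% interval from -0.10 to 0.65. A rise of up to 0.65 on the log2 scale is therefore within the interval, and the missed threshold does not show equal levels.

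*Tal1* (chromosome 4, 115056426 to 115071755), the helix-loop-helix partner of GATA1 and a factor of blood stem cells and mast cells too, was close to absent from the WT libraries, with 0, 2 and 0 reads. The *Piezo1*cKO libraries held 31, 43 and 38 reads, or 32.4, 41.9 and 38.7 normalized reads. Every *Piezo1*cKO library lay far above every WT library. Taken against the floor of 3 reads per library, *Tal1* was at least 12.6-fold higher in *Piezo1*cKO LSCs (deposited log2 fold change 0.28, SE 0.026, limma adjusted p = 5.43e-08). *Lyl1*, the close relative of *Tal1*, was far more abundant and went the other way, from 3625 ± 135 (SD, n = 3) to 2684 ± 165 (SD, n = 3) normalized reads, a fall with adjusted p = 1.19e-07 in limma. *Lyl1* was picked out after its values were seen.

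*Klf1* (chromosome 8, 84901928 to 84905291), the erythroid Krüppel-like factor, had 74.7, 79.7 and 83.7 normalized reads in WT LSCs and 21.9, 24.4 and 15.3 in *Piezo1*cKO LSCs. No library of one group reached the range of the other. The mean fell to 25.9% of the WT level, and its log2 fold change was -0.36 in the deposited values (SE 0.035, limma adjusted p = 6.37e-08) and -1.95 on reads (95% interval -2.42 to -1.48). *Klf1* and *Tal1*, both classed as erythroid regulators, thus changed in opposite directions in the same libraries.

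The wider list of 28 erythroid and megakaryocytic transcription factors, all of which were tested, split in the same manner. On the deposited values 9 rose, 15 fell and 4 did not pass, with a median log2 fold change of -0.10, against 0.0006 for all genes. The median on recovered reads was -0.15. Beside this count and each count of genes that rose or fell in a list below, 31.6% of all genes rose and 31.4% fell. *Gata2*, the progenitor and mast cell GATA factor, rose from 1363 ± 53.8 to 2478 ± 98.3 normalized reads (SD, n = 3 each). *Gfi1b*, a repressor needed in both lineages, rose from 104, 109 and 96.2 to 438, 394 and 343. *Zfpm1*, the GATA1 cofactor FOG1, rose from 1.94, 6.06 and 1.92 to 10.4, 12.7 and 9.16, and *Ldb1*, the bridging protein of the GATA1 and TAL1 complex, rose 1.30-fold. *Lmo2*, the bridge between the same proteins, fell to 60.3% of the WT mean and *Nfe2*, a late megakaryocytic factor, to 75.7%. The largest falls of the list in deposited log2 values were those of *Mecom*, a stem cell factor, from 691, 579 and 629 to 0, 0.975 and 0 normalized reads, and of *E2f2*, an E2F factor used in red cell maturation, which fell to 21.4% of WT. Subunits of one complex therefore differed in direction, and the total over the 28 genes was 44962 to 46212 normalized reads in WT and 38206 to 39437 in *Piezo1*cKO libraries.

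The receptor came next. *Epor* (chromosome 9, 21958897 to 21963506) had 32.0, 42.4 and 27.9 normalized reads in WT LSCs and 7.31, 7.80 and 13.2 in *Piezo1*cKO LSCs. The highest *Piezo1*cKO library stood below the lowest WT library. *Epor* fell to 27.7% of the WT mean, and its log2 fold change was -0.17 in the deposited values (SE 0.030, limma adjusted p = 9.75e-05) and -1.82 on reads (95% interval -2.52 to -1.12).

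*Jak2*, the kinase this receptor uses, fell to 62.7% of WT, and the ligand gene *Epo* was at 0 in all 6 libraries.

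Of the 21 tested genes of cytokine receptor signaling through JAK2 and STAT5, 15 fell, 3 rose and 3 did not pass. Among all genes 31.4% fell and 31.6% rose. The median log2 fold change of this list was -0.20 on the deposited values, against 0.0006 for all genes. It was -0.56 on recovered reads, against -0.0002. The STAT target *Socs3*, a feedback inhibitor, fell from 490, 474 and 565 normalized reads to 10.4, 8.77 and 8.14, or 1.79% of the WT mean. *Cish* and *Socs2*, inhibitors of the same kind that were picked out after their values were seen, fell to 4.44% and 4.63% of WT, and the kinase gene *Pim1* fell from 4355 ± 47.2 to 1158 ± 69.4 (SD, n = 3 each). *Lyn* and *Tyk2*, tyrosine kinases of this pathway and of others, rose 1.32-fold and 1.24-fold. The STAT5 genes, picked out after their values were seen, went in opposite directions. *Stat5a* rose 1.21-fold and *Stat5b* fell to 80.4% of WT. *Socs3*, *Cish*, *Socs2* and *Pim1* answer many cytokine receptors besides that for erythropoietin, and which receptor their levels followed was not tested.

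**Figure D2:**
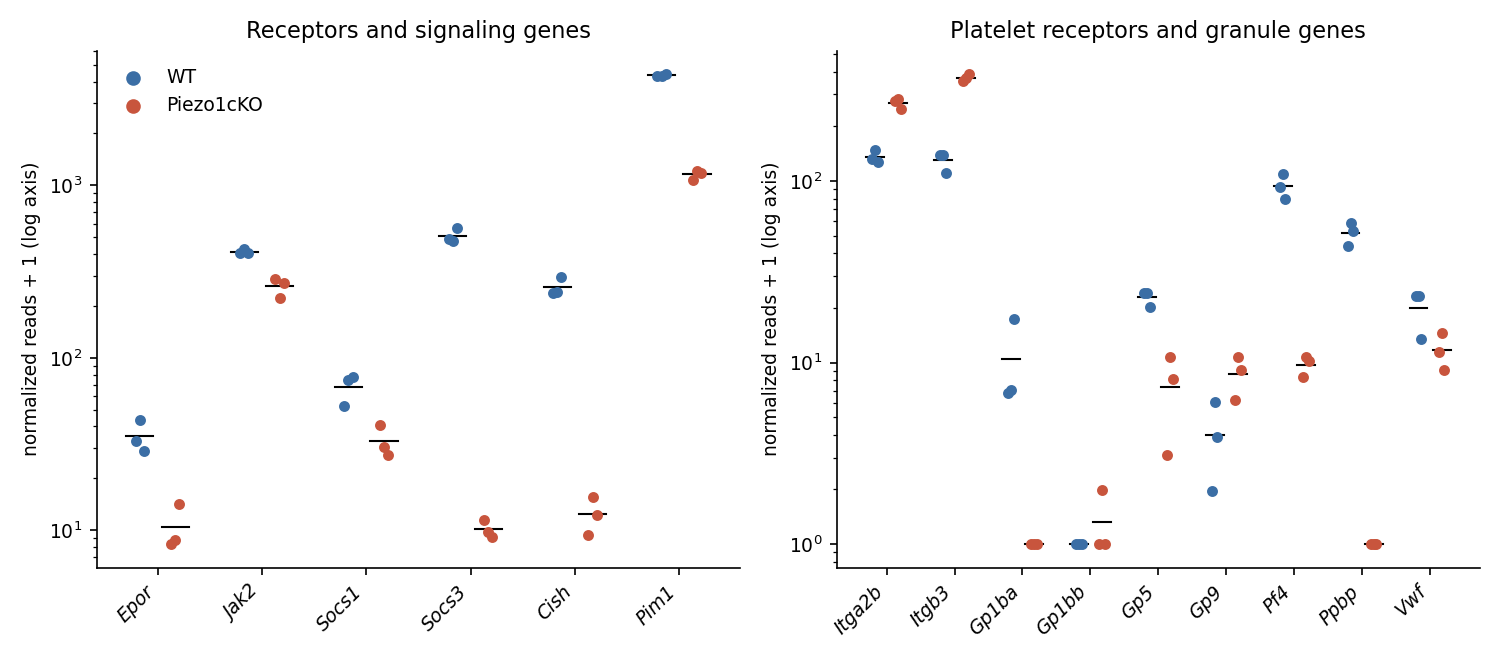
Normalized reads plus 1 (y axis, log scale) in each WT (blue) and *Piezo1*cKO (red) library for receptor and signaling genes on the left and for platelet receptor and granule genes on the right, with black lines for group means. *Epor* and *Socs3* lie lower in every *Piezo1*cKO library and *Ppbp* is at 0 there, while *Itga2b* and *Itgb3* rise.

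Both carbonic anhydrases fell. *Car1* (chromosome 3, 14766216 to 14808368), an abundant cytosolic enzyme of red cells, had 103, 92.8 and 87.5 normalized reads in WT LSCs and 10.4, 7.80 and 6.11 in *Piezo1*cKO LSCs. The ranges were far apart. It fell to 8.60% of the WT mean, and its log2 fold change was -0.55 in the deposited values (SE 0.035, limma adjusted p = 1.32e-10) and -3.49 on reads (95% interval -4.12 to -2.87). Over the 6 libraries the genes with the deposited values most like those of *Car1* were *Ddx18* (Pearson r = 0.9996), *Ddit3* (0.9993) and *Lax1* (0.9992), a description that the difference between the groups largely sets.

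*Car2* (chromosome 3, 14886273 to 14900770), the fast cytosolic enzyme that many other cells make as well, had 95.1, 114 and 78.9 normalized reads in WT LSCs and 33.4, 36.1 and 35.6 in *Piezo1*cKO LSCs. Here too the groups did not overlap, and the *Piezo1*cKO libraries lay within 3 normalized reads of each other. *Car2* fell to 36.5% of WT (deposited log2 fold change -0.34, SE 0.041, limma adjusted p = 1.23e-06).

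Both genes lie in one cluster, with 77905 bases between them, and *Car3* lies in this gap. *Car3*, a muscle and fat enzyme, had 23.2 ± 3.46 normalized reads in WT and 33.1 ± 2.14 in *Piezo1*cKO LSCs (SD, n = 3 each), and it did not pass the test (adjusted p = 0.0664, limma). *Car13*, on the other side of *Car1*, had at most 4.85 normalized reads in any library and did not pass either (adjusted p = 0.1004, limma). Neither neighbour was called lower.

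Of the 9 carbonic anhydrase genes tested, 3 fell (*Car1*, *Car2* and *Car5a*), 2 rose (*Car9* and *Car11*) and 4 did not pass. *Car9*, a hypoxia-responsive membrane enzyme, rose 1.23-fold, from 228, 228 and 258 to 303, 318 and 260 normalized reads. *Car11*, a form without enzyme activity, had at most 1.01 normalized reads in WT and 8.36, 15.6 and 13.2 in *Piezo1*cKO LSCs. *Car5a*, a mitochondrial form, had at most 7.06 normalized reads, and *Car4*, a membrane-anchored form, was at 0 but for 1 read.

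For the erythroid list as a whole, 30 of 41 genes in the table were tested. Of these 19 fell, 4 rose and 7 did not pass, where 31.4% of all genes fell and 31.6% rose. The list's median log2 fold change was -0.08 on the deposited values. On recovered reads, which are not pulled towards the mean, the median was -1.42 over 31 tested genes, against -0.0002 for all genes. *Klf1*, *Epor*, *Car1* and *Car2* were among the genes that fell. Those with the largest falls in deposited log2 values besides them were *Aqp9*, a glycerol channel that is also a liver and leukocyte gene, from 282, 271 and 245 to 2.09, 6.82 and 5.09 normalized reads, and *Cpox*, an enzyme of heme synthesis, from 306 ± 13.0 to 50.6 ± 3.82 (SD, n = 3 each). *Cd36*, a fatty acid receptor of erythroid progenitors, macrophages and platelets, was at 0, 1.01 and 0 in WT and rose to 56.4, 69.2 and 52.9. *Slc25a37*, the mitochondrial iron importer, rose 1.64-fold. The list thus held genes of iron and heme handling that went in both directions.

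Mature red cell transcripts were sparse in both groups. *Hba-a1*, an alpha globin gene, had 1.02 to 16.1 normalized reads over the 6 libraries, and *Alas2*, the erythroid enzyme of heme synthesis, had 2.89 to 10.4. Neither passed the test (adjusted p = 0.285 and 0.344, limma). The summed level of all 10 erythrocyte markers was 46.2 to 49.5 normalized reads in WT libraries and 18.5 to 23.0 in *Piezo1*cKO libraries, with 2 of 5 tested markers lower and none higher, and the authors had lysed red cells before the sort. The part of these markers in the fall of *Klf1*, *Epor*, *Car1* and *Car2* was not tested.

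The platelet genes gave both patterns. *Pf4* (chromosome 5, 90772435 to 90773383), platelet factor 4 of the alpha granule, had 92.2, 108 and 78.9 normalized reads in WT LSCs and 7.31, 9.75 and 9.16 in *Piezo1*cKO LSCs. The lowest WT library stood well above the highest *Piezo1*cKO library. *Pf4* fell to 9.40% of the WT mean, and its log2 fold change was -0.54 in the deposited values (SE 0.038, limma adjusted p = 7.09e-10) and -3.33 on reads (95% interval -3.98 to -2.68). *Ppbp*, the other abundant platelet chemokine, had 42.7, 57.5 and 52.0 normalized reads in WT and 0 in all *Piezo1*cKO libraries, at least 17.0-fold lower.

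*Itga2b* (chromosome 11, 102453297 to 102470122), the CD41 chain of the platelet fibrinogen receptor, had 131, 147 and 127 normalized reads in WT LSCs and 274, 283 and 249 in *Piezo1*cKO LSCs. The groups were clearly apart, in the direction opposite to *Pf4*. *Itga2b* rose 1.99-fold, and its log2 fold change was 0.44 in the deposited values (SE 0.040, limma adjusted p = 2.65e-08) and 0.99 on reads (95% interval 0.78 to 1.204). *Itgb3*, which encodes the CD61 chain of the same receptor, rose with it, from 139, 138 and 110 to 356, 369 and 387 normalized reads, a 2.88-fold rise (adjusted p = 4.37e-11, limma). Both chains of the receptor were thus higher while the granule chemokines were lower.

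*Gp9* (chromosome 6, 87778072 to 87779768), a subunit of the von Willebrand factor receptor, was sparse, with 1, 5 and 3 reads in WT and 5, 10 and 8 reads in *Piezo1*cKO LSCs. After division by size factors these were 0.970, 5.05 and 2.89 against 5.22, 9.75 and 8.14, so that the groups were parted by less than 1 read. *Gp9* passed the test narrowly (deposited log2 fold change 0.04, SE 0.015, limma adjusted p = 0.0442). The call was lost without WT replicate 1 (adjusted p = 0.147), without WT replicate 3 (0.0845), without *Piezo1*cKO replicate 2 (0.140) and without *Piezo1*cKO replicate 3 (0.0910), all in limma, and its log2 fold change ran from 0.03 to 0.05 when each of the 6 libraries was left out in turn.

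The other subunits of that receptor did not rise. *Gp1ba*, its ligand-binding chain, had 5.82, 6.06 and 16.4 normalized reads in WT and 0 in every *Piezo1*cKO library, at least 3.15-fold lower (adjusted p = 0.00138, limma). *Gp5* fell from 23.3, 23.2 and 19.2 to 2.09, 9.75 and 7.12. *Gp1bb* was at 0 but for 1 read in *Piezo1*cKO replicate 2. The 4 chains of one receptor thus had at most 23.3 normalized reads in any library and did not share a direction.

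*Vwf* (chromosome 6, 125546774 to 125686679), the large adhesive protein that this receptor binds, had 22.3, 22.2 and 12.5 normalized reads in WT LSCs and 10.4, 13.6 and 8.14 in *Piezo1*cKO LSCs. WT replicate 3 stood inside the *Piezo1*cKO range, so the groups overlapped. The log2 fold change was -0.06 in the deposited values (SE 0.026, limma adjusted p = 0.0578) and -0.77 on reads (95% interval -1.51 to -0.02). Without WT replicate 3 it passed the test, at a log2 fold change of -0.08 (adjusted p = 0.0164, limma), and it did not when any of the other 5 libraries was left out. Its annotated exons, merged over all transcripts, add up to 16064 bases, and where the reads fall along them was not examined.

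**Figure D3:**
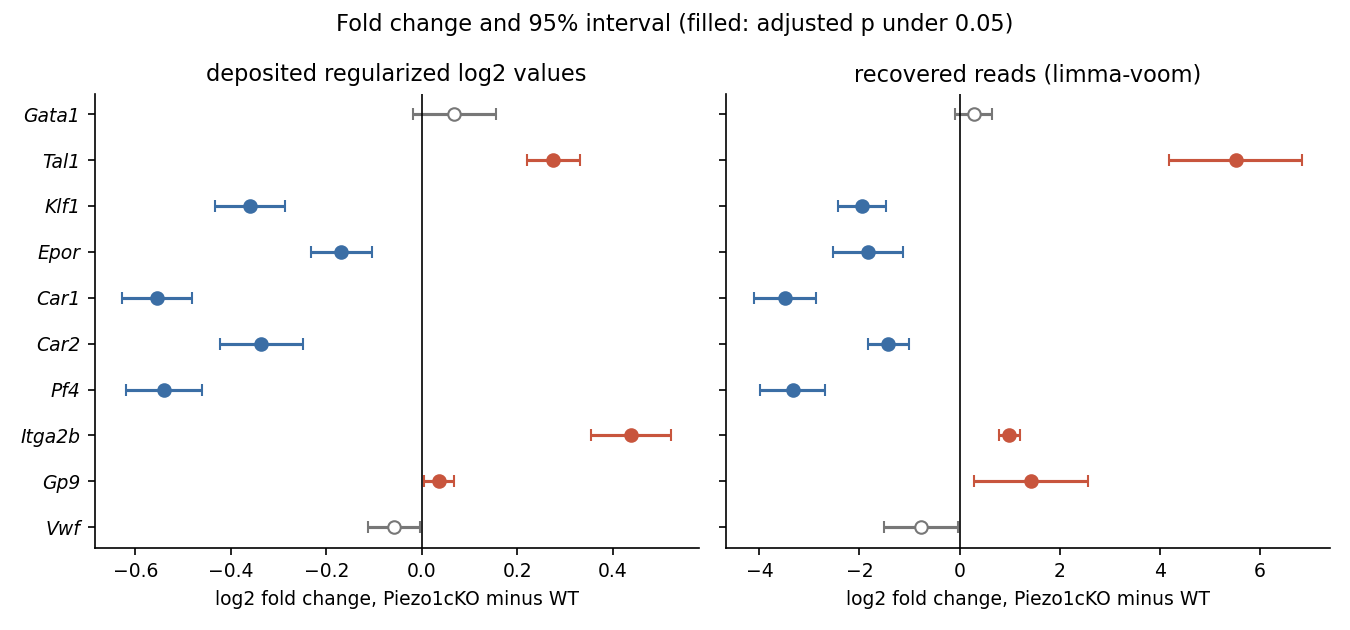
Log2 fold change (x axis, *Piezo1*cKO minus WT) with its 95% interval for the 10 genes, on the deposited values at left and on recovered reads at right, where filled points had an adjusted p under 0.05 in limma. *Car1* and *Pf4* lie lowest in both panels, with *Car1* at -0.55 and -3.49, *Epor* and *Car2* change places, and *Tal1* is at 0.28 and 5.52, a fitted value that depends on near-empty WT libraries.

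Of the 37 tested genes of the megakaryocyte and platelet list, 19 fell, 10 rose and 8 did not pass. Among all genes 31.4% fell and 31.6% rose. The median log2 fold change of this list was -0.05 on the deposited values and -0.40 on recovered reads. Besides *Itgb3*, the largest rise in deposited log2 values was that of *Arhgap6* from 16.5, 13.1 and 25.0 to 117, 106 and 147 normalized reads. *Plek*, the platelet protein kinase C substrate pleckstrin that leukocytes also make, fell to 33.4% of WT. Of the 31 genes of this list with a mean of at least 10 normalized reads, 7 were at 3 reads or fewer in each *Piezo1*cKO library and none was so in each WT library. Among them were *Ppbp* and *Thbs1*, and also *Rab27b*, *Cavin2*, *F2r* and *Myl9*. These last genes, from *Rab27b* to *Myl9*, were found by this count rather than named beforehand. Among all 13042 genes with such a mean, 0.736% were at the floor in every *Piezo1*cKO library and 0.652% in every WT library. *Rab27b*, which encodes a GTPase of platelet granule release, had 60.2, 51.5 and 48.1 normalized reads in WT and *F2r*, a thrombin receptor, had 42.7, 58.5 and 43.3, and both were at 0 in all *Piezo1*cKO libraries.

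In the list of integrin beta3, the glycoprotein Ib-IX-V complex and their ligands, 8 of 16 tested genes rose, 6 fell and 2 did not pass. Their median log2 fold change was 0.02 on the deposited values and 0.07 on recovered reads. *Fn1*, the adhesive ligand fibronectin, rose from 23.3, 24.2 and 25.98 to 299, 276 and 280 normalized reads, 11.6-fold. *Thbs1*, another adhesive protein of platelet granules, went from 45.6, 35.3 and 26.9 to 0, 0.975 and 0, and *Rap1b*, the GTPase that switches the integrin on, fell to 42.3% of WT. Of 13 tested genes of megakaryocyte-biased stem cells, which include *Vwf*, *Itga2b* and *Pf4*, 5 rose, 5 fell and 3 did not pass. Their median log2 fold change was -0.04 on the deposited values and -0.67 on recovered reads. *Gng11*, a G protein subunit, rose 2.86-fold and *Ctnnal1*, an alpha-catenin relative, 2.07-fold, against the fall of *Mecom*.

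**Figure D4:**
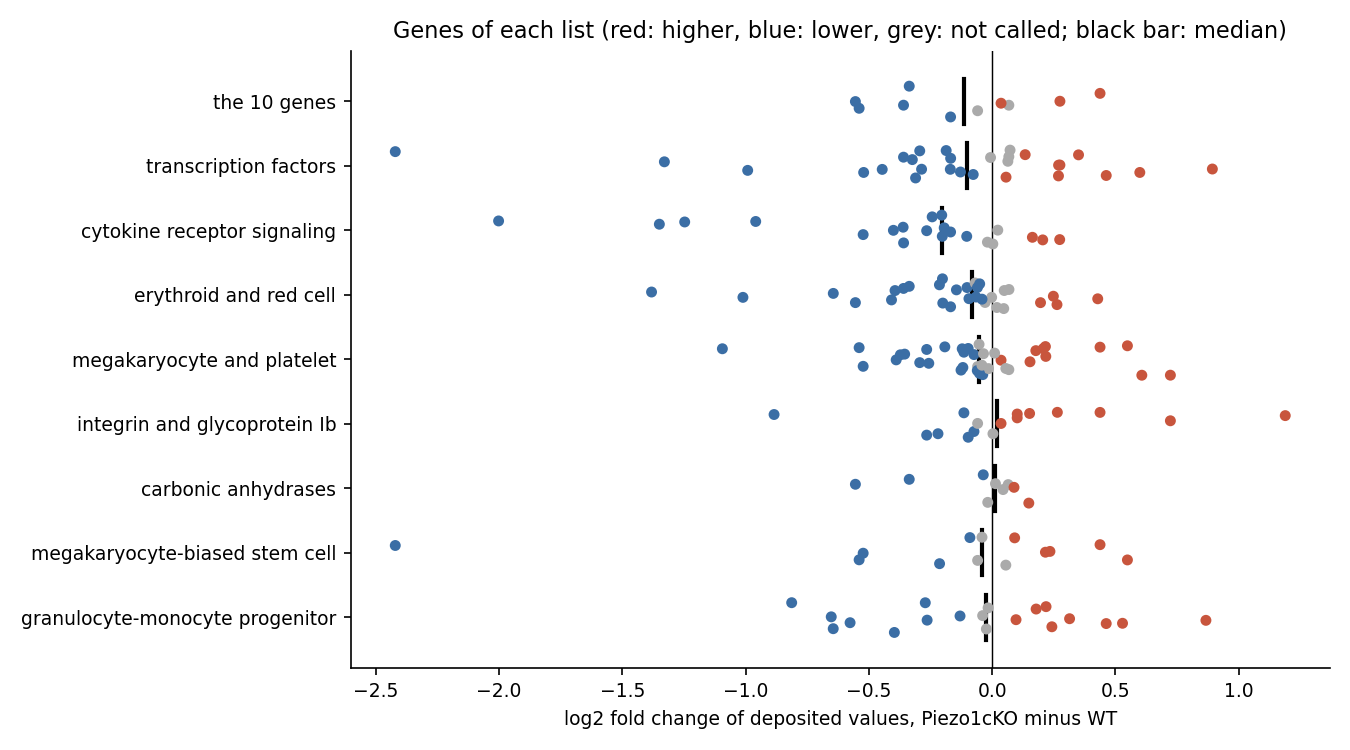
Log2 fold change of deposited values (x axis, *Piezo1*cKO minus WT) of each tested gene, 1 row of points per list, red where higher, blue where lower and grey where not called at an adjusted p of 0.05, with a black bar at the list's median. Each lineage list holds genes on both sides of 0. On this scale, which pulls values towards each gene's mean, the medians run from -0.20 for receptor signaling to 0.02 for the integrin and glycoprotein list. The order differs on recovered reads, where the lowest median is -1.42, for the erythroid and red cell list.

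Markers of other cell types moved with the groups as well. The platelet markers, 10 genes that include *Pf4*, summed to 360 to 404 normalized reads in WT and 465 to 510 in *Piezo1*cKO libraries. Of the 9 tested, 6 fell, 2 rose (*Itgb3* and *Selp*, a granule membrane receptor) and 1 did not pass, and *Treml1* was at 0 throughout. *Itgb3* made up most of the *Piezo1*cKO sum, and the part of platelets in the changes of *Pf4* and *Itga2b* was not tested. The mast cell and basophil markers, to which *Gata2* belongs, summed to 12993 to 13380 normalized reads in WT and 25143 to 25498 in *Piezo1*cKO libraries. Of these markers, 11 of 15 tested were higher (31.6% of all genes were) and 2 lower (31.4%). Their most abundant genes were the proteoglycan *Srgn*, which was not called, and the protease *Prss34*, which rose from 2217, 2296 and 2317 to 4307, 4605 and 4413. None of the 18 was at 0 in all libraries. Mast cells express *Gata2*, *Tal1*, *Gfi1b* and *Itgb3*, and the part of such cells in the rise of these genes was not tested.

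The remaining marker lists were set beside the 10 genes in the same way. Endothelial markers, to which *Vwf* belongs, summed to 3122 to 3177 in WT and 3641 to 3869 in *Piezo1*cKO libraries, led by *Pecam1*, which blood cells share, and the defining genes *Tek* and *Emcn* were at 0. B cell markers summed to 12232 to 12603 in WT and to 22370 to 22754 in *Piezo1*cKO libraries, carried by *Ighm*, with *Blk* at 0, and T cell markers to 218 to 235 and to 362 to 384, with *Trbc2*, *Cd8a* and *Thy1* at 0. Macrophage markers summed to 4772 to 4932 in WT and to 5888 to 6094 in *Piezo1*cKO libraries with *C1qa* at 0, and neutrophil markers to 2588 to 2648 and to 972 to 1037 with *Retnlg* at 0. The genes of the sort and of the MLL-AF9 program summed to 26244 to 26829 in WT and 28035 to 28554 in *Piezo1*cKO libraries, *Kit* and *Cd34* were present in all, and the Sca-1 gene *Ly6a* stayed between 0 and 16.6. The part of these lists in the changes of the 10 genes was not tested.

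**Figure D5:**
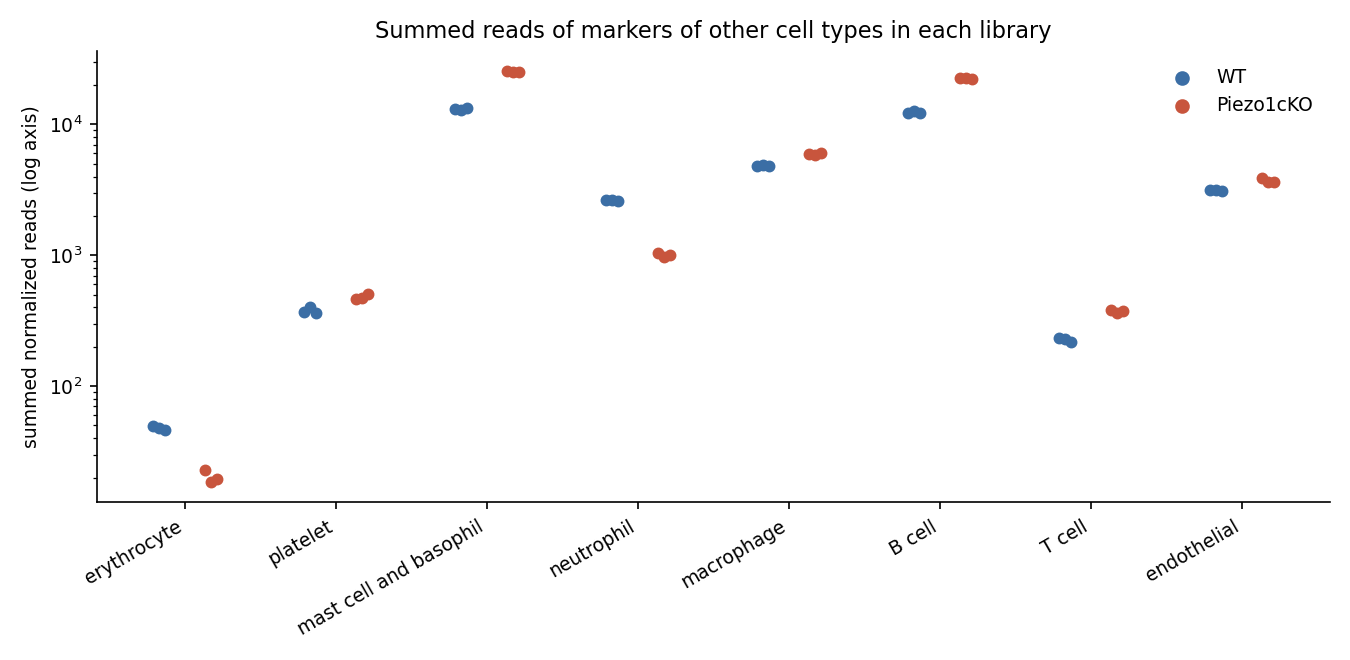
Summed normalized reads (y axis, log scale) of marker lists of other cell types in each WT (blue) and *Piezo1*cKO (red) library. The erythrocyte sum is small in both groups and lower in *Piezo1*cKO libraries, at 46.2 to 49.5 in WT and 18.5 to 23.0 in *Piezo1*cKO. The neutrophil sum is also lower in *Piezo1*cKO libraries. The mast cell, B cell, T cell, macrophage, endothelial and platelet sums are higher there.

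Per length, the 10 genes were modest next to the granulocytic genes of the same cells. In WT LSCs *Pf4* had the highest level among them, 8.65 ± 1.36 (SD, n = 3) RPKM (reads scaled to exon length and to the reads on genes of the library), followed by *Car1* at 5.07 ± 0.41, *Klf1* at 3.48 ± 0.20 and *Car2* at 2.66 ± 0.49. *Gata1* (1.70) and *Itga2b* (1.66) overlapped in their ranges, *Epor* had 1.15, *Gp9* (0.226) and *Vwf* (0.0794) overlapped, and *Tal1* was last at 0.0103. In *Piezo1*cKO LSCs *Itga2b* led at 3.34 ± 0.21 RPKM, ahead of *Gata1* at 2.07 ± 0.29. From *Car2* (0.983) through *Klf1*, *Pf4*, *Gp9*, *Tal1* and *Car1* to *Epor* (0.323) each gene's range overlapped that of the next, so neighbours in this order did not differ beyond their spread, and *Vwf* was last at 0.0454. The order of the 10 genes was thus headed by *Pf4* and *Car1* in WT LSCs and by *Itga2b* and *Gata1* in *Piezo1*cKO LSCs.

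The granulocyte-monocyte progenitor list gave a comparison with the program that the sort selects. Of its 19 genes 8 rose, 8 fell and 3 did not pass, with a median log2 fold change of -0.02, near that of all genes. The median on recovered reads was -0.03. The summed level of the list was nevertheless lower, at 586627 to 629835 normalized reads in WT and 334521 to 360279 in *Piezo1*cKO libraries. *Mpo*, the granule peroxidase, had 5684 RPKM in WT and 3134 RPKM in *Piezo1*cKO LSCs and fell to 54.5% in normalized reads, and the elastase gene *Elane* fell to 46.9%. *Flt3*, a cytokine receptor of early progenitors, rose 2.48-fold and *Cebpa*, the granulocytic master factor, 2.30-fold. Genes of this list thus went in both directions too, and no test of a difference between the branches was made.

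Under the stricter rule that also asks for an absolute log2 fold change over 1, none of the 10 genes was called by limma on the deposited scale, where 0.818% of all genes were, 0.257% higher and 0.561% lower. In limma 9 of the 10 had an unadjusted p under 0.05. On recovered reads 7 were called by this rule, *Tal1* and *Gp9* higher and *Klf1*, *Epor*, *Car1*, *Car2* and *Pf4* lower, beside 24.9% of all genes, 12.7% higher and 12.2% lower. *Itga2b*, at 0.99, stood just under the fold threshold on reads. In 8 of the 10 genes the deposited values of the groups did not overlap, 5 lower and 3 higher, which held for 66.6% of all genes tested, 33.5% higher and 33.1% lower. The 8 were the genes called by the first rule, which on recovered reads also called 3 higher and 5 lower, beside 62.9% of all genes.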

How the data were processed

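For the deposited table, the authors used fastp (version 0.20.1) to trim, HISAT2 (version 2.2.1) to align to GRCm38, featureCounts (version 2.0.1) to count and DESeq2 (version 1.28.1) to normalize. Libraries followed a Smart-seq2 based protocol, which does not mark strand. The deposited table holds log2 values of a regularized log form, 1 column per library. Its 26402 genes with values were turned back into whole reads by undoing the transform, and these reads returned every deposited value with an error of at most 4.1e-08. Reads carry no molecular identifiers, so floors (3 reads per library) cover counting error only.

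In R (version 4.3.3), limma (version 3.58.1) was run on the deposited values as a 1-factor model with a variance trend, and two-sided p-values were adjusted by Benjamini-Hochberg over 16746 genes. Recovered reads were fitted with limma-voom. Both fits were also run on simulated reads, which were given the same dispersion in all genes. That run cannot tell whether the real libraries came from separate mice. The smallest exact permutation p for 3 against 3 is 0.1 (two-sided). Replicates of a group differed by more than counting noise. Alternatives were no filter, quantile normalization, no trend, a replicate block, library totals and leaving out each library. Recovered reads with the block or without a library were added after the values were seen.

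The genes and lists were chosen with earlier results of these data known. Named genes were the 10 genes, their direct partners, and of each lineage list the 2 higher and 2 lower genes with the largest changes, and of each marker list the 2 most abundant and those at 0. Some genes of these lists are not reported here by name. Coordinates and exon lengths came from GENCODE release M21 on GRCm38, and promoters from RefSeq on GRCm38.p6. Python (version 3.11.15), numpy (version 2.4.6), pandas (version 2.3.3) and matplotlib (version 3.10.9) were used.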

Additional observations from a re-analysis of the deposited data

How the results depend on the processing

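In 19 alternatives *Gata1* was never called, and *Klf1*, *Tal1*, *Epor*, *Car1*, *Car2*, *Pf4* and *Itga2b* kept their direction and an adjusted p under 0.05 (limma). *Gp9* kept its direction in all 19 but was called in 8, with adjusted p from 0.0206 to 0.160, and *Vwf* was called in 4, with adjusted p from 0.0164 to 0.208. The counts of called genes at an adjusted p under 0.05 stayed within 1.5 times in all 38 cases. With the fold rule added, the counts moved from 0 higher and 0 lower to 2 and 5 on recovered reads and to 3 and 5 with library totals, since recovered reads are not pulled towards the mean. In fits of recovered reads that left out a library the counts were 1 to 3 higher and 5 to 6 lower. List counts stayed within 1.5 times in 303 of 304 cases. The exception was the carbonic anhydrase list, where the 2 higher genes became 1 on recovered reads without *Piezo1*cKO replicate 2.

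The labels number the replicates 1 to 3 in both groups. Same-numbered libraries had correlations of their deviations from the group means of 0.195, 0.161 and 0.0696 over genes, and all 3 WT libraries correlated best with their own number, a hint from the data and not from the design. With the replicate number as a block, 3 of the 10 genes were higher and 5 lower on the deposited values. On recovered reads with the block 3 were called higher and 6 lower by adjusted p, *Vwf* being added (adjusted p = 0.0466, limma), and 2 and 5 by the fold rule.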
